A study of Mus musculus with 3 samples.

Results

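Protein phosphatases are the enzymes, and their regulatory subunits, that take phosphate groups off other proteins. The mouse oligonucleotide arrays compared here carried 144 probes for 88 such genes, among 16281 probes and 10698 genes in all. Members were the probes with a single gene symbol in the platform annotation that begins with Ptpn or Ptpr (68 probes of 34 genes), Dusp (17 probes of 12 genes) or Ppp and a digit (59 probes of 42 genes), with Dusp1 left out. The rule reads the symbols and uses no measured value, though it was written with earlier results of these arrays known. A few members only bind or regulate a phosphatase: Ptprcap, for example, is a small membrane protein that associates with CD45.

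Each of 3 two-colour arrays carried a commercial liver total RNA in the red dye, Cyanine-5, and a commercial spleen total RNA in the green dye, Cyanine-3. The labels name the same RNA product for each tissue on every array and give no strain, age, sex, treatment or number of mice. The arrays were therefore taken as repeats of 1 pair of RNAs, so that SDs and p-values cover variation from array to array, possibly all of it technical, and none between animals. The dyes were never exchanged, so for any probe a bias of the dye and a difference of the tissue cannot be told apart.

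Tyrosine phosphatases remove phosphate from tyrosine. The receptor types (Ptpr) span the membrane and the non-receptor types (Ptpn) lie inside the cell, and in lymphocytes CD45, the product of Ptprc, sets the activity of the Src-family kinases that start antigen-receptor signalling. Dual-specificity phosphatases (Dusp) act on tyrosine and threonine, many of them on MAP kinases. The Ppp genes encode the serine/threonine phosphatases PP1, PP2A, calcineurin, PP4, PP5 and PP6 and many partner subunits, which send a shared catalytic subunit to its substrates. In liver, glycogen-targeting subunits hold PP1 on glycogen particles, where it activates glycogen synthase and shuts off glycogen phosphorylase.

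The values are log2 ratios, read as liver over spleen, so that a positive ratio means a higher signal in liver RNA. The labels do not state the direction of the ratio, and the sample titles name the tissues in the other order, spleen versus liver. The direction used here is likely from genes other than phosphatases. The median of the liver genes was 5.24, 5.07 and 4.74 on arrays 1, 2 and 3, with Mbl2, a liver plasma lectin, at 5.90 ± 0.22 (SD, n = 3 arrays, as for every ± below). The median of the spleen genes was -2.19, -1.66 and -1.69, with the lymphocyte transcription factor Spib at -4.08 ± 0.15. Of the defining hepatocyte markers Alb was listed at exactly 0 on 2 arrays and Ttr on all 3. An exact 0 was taken as no measurement. Of 15 tested probes for T and B lymphocyte markers, the probes of Cd3e, Pax5, Blk and Ms4a1 did not pass the test toward either tissue. The 3 arrays gave similar ratios for phosphatases, with Pearson's r between 0.919 and 0.944 over the 128 phosphatase probes measured on all 3 arrays. These correlations run across probes, which are not independent of each other, and are a description.

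The promoters of the genes that lead each direction and have a RefSeq window are shown first, because these are among the genes whose tissue difference was widest. Ptprc and Ptpn18 had the lowest ratios of all phosphatases, and Ppp1r3g and Ptprk were among the 3 genes with the highest. Ptprd, the highest of all, had no window. Each line gives the 250 bases before the RefSeq start of the gene (build GRCm38.p6), 5′ to 3′ on the gene's strand, and for Ptprc the more upstream of its 2 listed starts. Capitals mark GAGGAA (the core of a PU-box, bound by the blood-cell factor PU.1), TATAAA and CCAAT on either strand. No marked match overlaps another.
Ptprc, chr1:138175306-138175555, minus strand: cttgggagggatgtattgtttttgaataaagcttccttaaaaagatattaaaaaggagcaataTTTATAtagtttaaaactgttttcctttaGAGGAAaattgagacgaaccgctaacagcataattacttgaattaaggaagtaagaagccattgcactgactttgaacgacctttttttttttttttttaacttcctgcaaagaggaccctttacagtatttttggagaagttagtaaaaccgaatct
Ptpn18, chr1:34459496-34459745, plus strand: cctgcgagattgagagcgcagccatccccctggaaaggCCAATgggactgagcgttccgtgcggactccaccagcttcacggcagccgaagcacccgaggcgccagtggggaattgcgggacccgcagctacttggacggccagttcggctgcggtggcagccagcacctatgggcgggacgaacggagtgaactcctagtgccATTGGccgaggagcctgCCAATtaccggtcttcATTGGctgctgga
Ppp1r3g, chr13:35967656-35967905, plus strand: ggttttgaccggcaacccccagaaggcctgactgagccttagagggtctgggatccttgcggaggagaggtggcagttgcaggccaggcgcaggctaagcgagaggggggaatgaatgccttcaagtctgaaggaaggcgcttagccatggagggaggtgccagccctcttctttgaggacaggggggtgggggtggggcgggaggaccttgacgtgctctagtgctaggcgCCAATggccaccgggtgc
Ptprk, chr10:28074570-28074819, plus strand: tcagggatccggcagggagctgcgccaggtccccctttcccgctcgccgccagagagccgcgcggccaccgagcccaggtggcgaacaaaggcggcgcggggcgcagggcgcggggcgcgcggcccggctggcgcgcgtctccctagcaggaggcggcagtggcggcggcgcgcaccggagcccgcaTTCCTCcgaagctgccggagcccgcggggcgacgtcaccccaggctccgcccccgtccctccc

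The Ptprc window is AT-rich, with 31.6% G and C and 4 CG dinucleotides. It holds 1 TATAAA and 1 GAGGAA. The Ptpn18 window has 64.0% G and C, 19 CG dinucleotides and 4 CCAAT matches. The Ppp1r3g window has 63.2% G and C, 9 CG dinucleotides and 1 CCAAT, and the Ptprk window has 79.2% G and C, 38 CG dinucleotides and 1 GAGGAA. Over all 32851 windows of this length, the median was 52.4% G and C and 6 CG dinucleotides. GAGGAA lay in 23.3% of them, TATAAA in 12.4% and CCAAT in 33.8%. GTTAAT, an HNF1 half-site, was searched as well and had no match in these 4 windows, against 6.43% of all windows. A match describes letters in a window and is not a binding site.

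Over all phosphatases, the probes past the test lay more on the spleen side. Each probe's mean ratio was tested against 0 with limma, and the threshold was an adjusted p of 0.05 (Benjamini-Hochberg over all 14122 probes measured on 3 arrays). Of the 128 phosphatase probes tested, 16 passed toward liver and 46 toward spleen, which is 12.5% and 35.9%. Among all 14122 probes, 23.5% passed toward liver and 26.7% toward spleen. The share past the test in either direction was 48.4% for phosphatases, near the 50.2% of all probes. Without array 1 the phosphatase counts were 12 toward liver and 29 toward spleen. No share of all probes was taken for fits that left out an array, here or below. In a bulk RNA, fewer cells of a type and less RNA per cell cannot be told apart, which holds for every ratio here.

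Most phosphatase ratios were small. At 2-fold or more and past the test there were 4 probes toward liver and 8 toward spleen, or 3.12% and 6.25%, against 8.85% and 9.13% of all probes. The median absolute mean ratio was 0.26 for phosphatases and 0.31 for all probes. The median ratio of the 128 probes was -0.11, -0.11 and -0.14 on arrays 1, 2 and 3, against 0.02, 0.03 and 0.00 for all probes. All 62 probes past the test had the same sign on the 3 arrays, which passing nearly requires. So had 21 of the 66 that did not pass. By gene, 12 had a probe past the test toward liver, 31 had one toward spleen, none had both, and 39 had neither. The first counts are 14.6% and 37.8% of the 82 genes tested, against 26.8% and 29.3% of all 9803 genes tested. Such a count favours genes with several probes. The arrays carried 144 probes for 88 phosphatase genes, against 13738 probes with a single symbol for 10698 genes. Averaged by gene, 13 and 26 of the 82 passed toward liver and spleen, with no share of all genes taken.

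**Figure D1:**
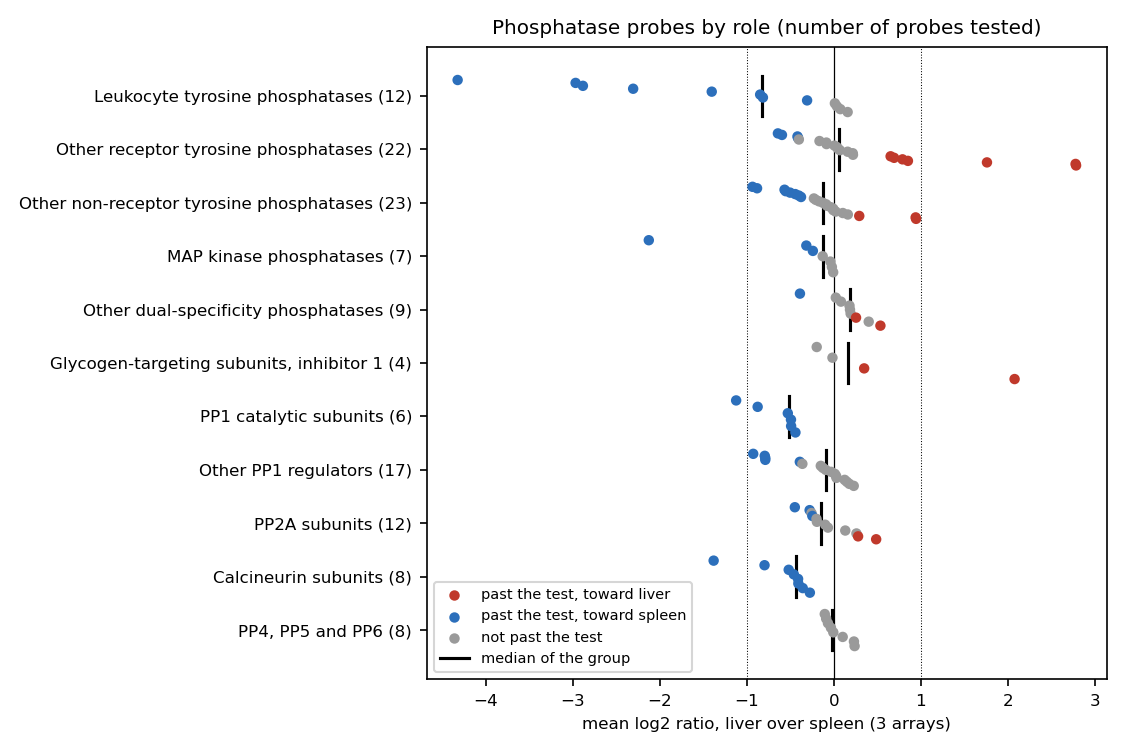
Mean log2 ratio, liver over spleen, of each of the 128 phosphatase probes measured on 3 arrays, by role; the number in brackets counts probes, red points passed the test toward liver, blue points toward spleen and grey points in neither direction, black bars are group medians and dotted lines mark 2-fold. The widest ratios lie among tyrosine phosphatases, from -4.33 for a Ptprc probe to 2.78 for Ptprd, while all PP1 catalytic and calcineurin probes lie below 0.

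The leukocyte tyrosine phosphatases held the lowest ratios of the family. Of 12 tested probes of 7 genes, none passed toward liver and 8 passed toward spleen, against 23.5% and 26.7% of all probes. The 8 came from Ptprc, Ptpn18, Ptprcap, Ptpn22 and Ptpre. The median of all 12 tested probes was -0.83. Of the 8, 5 were 2-fold or more lower in liver than in spleen, a limit that 9.13% of all probes passed toward spleen.

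Ptprc encodes CD45, the receptor phosphatase carried by nucleated blood cells. Probes are named here by the number the platform gives them. Probe 7610 read -4.41, -4.75 and -3.82 on arrays 1, 2 and 3, a mean of -4.33 ± 0.47, or 20.0-fold (adjusted p = 3.88e-05, limma). This was the lowest ratio of any phosphatase on all 3 arrays. Its probe 5226 read 0.18, 0.01 and -0.08 and did not pass. A further probe, 2799, had 1 value, -1.82 on array 2. The platform annotation ties probes 7610 and 2799 to 1 sequence record and the flat probe to another. Ptprcap, whose product binds CD45, was split in the same manner. Its probe 885 read -2.24, -2.45 and -2.24 (mean -2.31 ± 0.12, 4.95-fold, adjusted p = 2.98e-05, limma), while its probe 8135, made from another record, read 0.26, -0.02 and 0.24.

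Ptpn18, a cytosolic phosphatase of the PEST group found in blood-forming cells, had wide ratios on both of its probes, with means 0.08 apart. Probe 14049 read -3.19, -2.81 and -2.90, a mean of -2.97 ± 0.20 (7.83-fold, adjusted p = 2.37e-05, limma). Probe 5922 read -2.66, -3.15 and -2.84, a mean of -2.89 ± 0.25 (7.39-fold, adjusted p = 3.30e-05, limma). All 6 values lay below -2.6. Both probes come from the same sequence record.

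Ptpn22, which restrains T-cell receptor signalling, was lower in liver on both probes. Probe 13788 read -1.48, -1.35 and -1.38 (mean -1.40 ± 0.07), and probe 1693 read -0.73, -1.02 and -0.70 (mean -0.82 ± 0.18), with adjusted p = 0.000102 and adjusted p = 0.00148 (limma). The values of the probes did not overlap, so the size of the difference depends on the probe. Ptpre, a receptor phosphatase of macrophages and other blood cells that also has a cytosolic form, read -1.02, -0.86 and -0.67 on probe 4428 (adjusted p = 0.00126, limma). On its probe 14079 it read -0.30, -0.28 and -0.34 (adjusted p = 0.0228, limma), a call lost without any 1 of the arrays.

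The other two members of this group had means near 0. Ptpn6, or SHP-1, the phosphatase recruited by inhibitory receptors of blood cells, read 0.05, 0.09 and -0.11 on its single probe. Ptprj, or CD148, read -0.08, 0.04 and 0.27. Neither passed the test, and the values of each lay on both sides of 0.

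The kinases and adaptors of the same signalling pathways ranged as widely. The tested set was 19 probes for 13 genes of the Src, Syk and Tec kinase families, Csk and their adaptors. In it 1 passed toward liver and 11 toward spleen, against 23.5% and 26.7% of all probes. The 19 had a median of -0.79. The B-cell kinase Btk averaged -4.01 ± 0.10, the B-cell adaptor Blnk -2.96 ± 0.78 on its lower probe, and the T-cell adaptor Lcp2 -2.36 ± 0.41 on its lower probe. Zap70, a T-cell kinase, averaged 0.54 ± 0.04. Adaptors, too, had flat probes: another Blnk probe averaged 0.13 ± 0.19. Most markers of blood cells were lower in liver as well. Btk and the markers Cd2, Cd3e, Cd79a, Cd79b and Cr2 were also among the spleen genes used to read the direction. Their values are therefore not independent of that reading. Among tested probes, 7 of 8 for T and NK cells, 4 of 7 for B cells, 9 of 10 for myeloid cells and 6 of 6 for erythroid cells passed toward spleen, with list medians of -1.44, -1.03, -2.32 and -1.63. The remaining myeloid probe, for S100a8, passed toward liver at 0.52 ± 0.06, while 2 other S100a8 probes passed toward spleen. Of 7 probes for pancreatic acinar cells, a tissue next to the spleen, 1 passed toward liver and 4 toward spleen, with means between -0.46 and 0.29. The part of these cells in the phosphatase ratios was not tested.

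The list called hepatic metabolic subunits, the other side of the comparison, held 3 glycogen-targeting subunits of PP1 and its inhibitor 1, with 1 probe each. Its name was not drawn from the values. Of these 4 probes, 2 passed toward liver and none toward spleen, against 23.5% and 26.7% of all probes. The 4 had a median of 0.17, but only Ppp1r3g passed in every fit that left out 1 array. Ppp1r3g, a glycogen-targeting subunit that promotes glycogen storage in liver after feeding, read 2.32, 2.14 and 1.77 on arrays 1, 2 and 3. Its mean of 2.08 ± 0.28 is a 4.22-fold higher signal in liver (adjusted p = 0.000116, limma). It was the only Ppp probe that passed toward liver at 2-fold or more. Ppp1r3c, known as PTG, read 0.45, 0.41 and 0.19, a mean of 0.35 ± 0.14 (adjusted p = 0.0262, limma), and did not pass without array 1 or without array 2. Ppp1r3f, which also binds glycogen, read 0.11, -0.34 and -0.36, and the inhibitor gene Ppp1r1a read 0.10, -0.14 and -0.01. Neither passed, and both had values on either side of 0.

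The median of the leukocyte tyrosine phosphatases was -0.88, -0.94 and -0.68 on arrays 1, 2 and 3, against 0.28, 0.14 and 0.09 for the hepatic metabolic subunits. The difference, leukocyte minus hepatic, was -1.15, -1.07 and -0.77, with the leukocyte median lower on all 3 arrays. The lists were chosen with results of these data known, and 4 hepatic probes are few, so no test was made of this difference. The probes overlapped: the 4 leukocyte probes that did not pass averaged 0.01 to 0.16, above Ppp1r3f at -0.20 and Ppp1r1a at -0.02.

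Genes of glycogen metabolism gave a setting for the liver side. Of 14 tested probes of 13 genes, 6 passed toward liver and 2 toward spleen, against 23.5% and 26.7% of all probes. The 14 had a median of 0.23. The glucose-6-phosphate carrier Slc37a4 averaged 3.09 ± 0.10, the liver glycogen phosphorylase Pygl 2.57 ± 0.06 and phosphoglucomutase Pgm1 2.55 ± 0.51. Glycogenin (Gyg), the protein primer of glycogen, went the other way at -1.55 ± 0.20, as did Pgm2 at -1.11 ± 0.37.

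**Figure D2:**
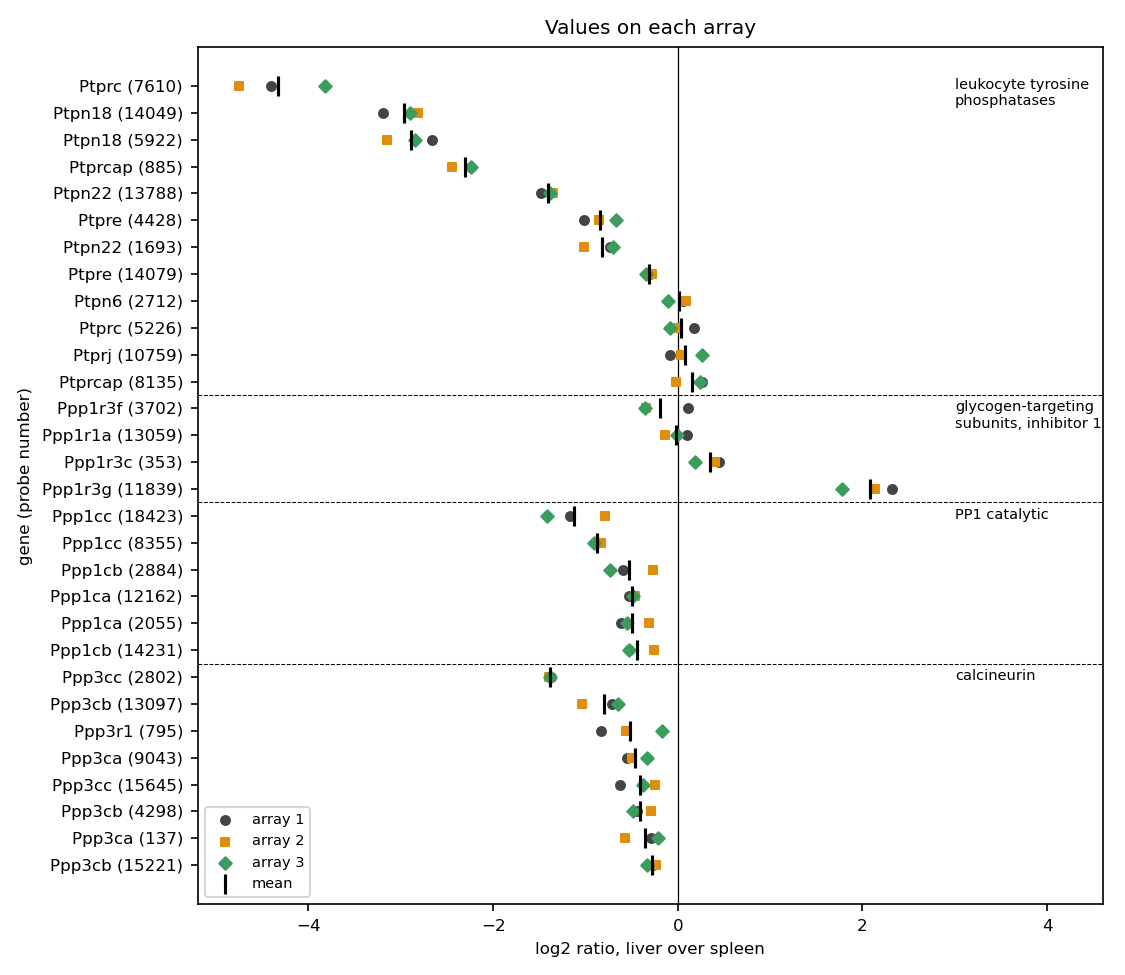
Log2 ratio, liver over spleen, on each of the 3 arrays (symbols) with the mean (bar) for the tested probes of the leukocyte tyrosine phosphatases, the hepatic metabolic subunits, the PP1 catalytic subunits and calcineurin; the bracket gives the probe number. Ptprc probe 7610 lies below -3.8 on every array while its probe 5226 lies near 0, and Ppp1r3g stands alone above 1.7.

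The other receptor tyrosine phosphatases held the highest ratios of the family. Of 22 tested probes of 12 genes, 7 passed toward liver and 4 toward spleen, against 23.5% and 26.7% of all probes. The 22 had a median of 0.06. The 7 belonged to Ptprd, Ptprk, Ptprg and Ptprb.

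Ptprd encodes a receptor phosphatase with adhesion-molecule repeats, best known from neurons. Its probe 1370 read 2.90, 2.47 and 2.96, a mean of 2.78 ± 0.26 (6.86-fold, adjusted p = 4.18e-05, limma). Its probe 6720 read 3.16, 3.01 and 2.18, a mean of 2.78 ± 0.53 (6.89-fold, adjusted p = 0.00021, limma). Both probes come from 1 sequence record and are the highest of all phosphatase probes. Its other probes come from different records and were flat: probe 7639 read -0.09, 0.12 and 0.07, and probe 4427 read 0.19 and 0.31 on arrays 1 and 2 with no value on array 3. Ptprk, a receptor phosphatase that binds its own kind on neighbouring cells, read 1.84, 1.93 and 1.504 on its single probe (mean 1.76 ± 0.23, 3.39-fold, adjusted p = 0.000137, limma).

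Ptprg was higher in liver on 2 of its 3 probes, which read 0.96, 0.87 and 0.72 (probe 2594) and 0.83, 0.94 and 0.59 (probe 1369). Its probe 15834, made from another record, averaged 0.01 ± 0.17 and did not pass. Ptprb, or VE-PTP, the receptor phosphatase of blood vessel endothelium, averaged 0.69 ± 0.11 and 0.65 ± 0.13 on its 2 probes, with adjusted p = 0.00163 and adjusted p = 0.00234 (limma).

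The receptor phosphatases toward spleen had smaller ratios. Ptpra, a widely expressed activator of Src, averaged -0.64 ± 0.24 and -0.41 ± 0.20 on its 2 probes, of which the second did not pass without array 1 or without array 2. Ptprm, a close relative of Ptprk, averaged -0.60 ± 0.32 and -0.42 ± 0.09, and neither of its probes passed without array 2. Ptpro had a probe at -1.04 and -1.21 on arrays 1 and 3 with no value on array 2, while its tested probe averaged -0.09 ± 0.17. Ptprf, or LAR, which acts on the insulin receptor, had values of -0.05 and -0.29 on arrays 2 and 3 only. The remaining tested receptor genes, Ptprr, Ptprs, Ptpru, Ptprv and Ptprz1, did not pass on any probe. Ptprs read -0.52 and -0.73 on arrays 1 and 2 but 0.04 on array 3, and passed toward spleen without array 3 at -0.62. Ptprn and Ptprn2, of neuroendocrine cells, had no probe measured on all arrays.

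Among the other non-receptor tyrosine phosphatases, 3 of 23 tested probes passed toward liver and 8 toward spleen, against 23.5% and 26.7% of all probes. The 23 had a median of -0.13. Ptpn21, a phosphatase with a band 4.1 (FERM) domain, had the highest means. Its probe 15220 read 0.99, 0.90 and 0.94 and its probe 9613 read 1.06, 0.75 and 1.00, with a mean of 0.94 on both (adjusted p = 0.000356 and adjusted p = 0.000769, limma). Ptpn3 also passed toward liver at 0.29 ± 0.13, a call lost without any 1 of the arrays and when the arrays were centred.

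Ptpn2, the T-cell protein tyrosine phosphatase, which despite its name is widely expressed and dampens JAK and STAT signalling, was the lowest of this group. Its probe 2956 read -0.83, -1.12 and -0.86, and its probe 11022 read -0.85, -1.08 and -0.72. The means of -0.94 ± 0.16 and -0.88 ± 0.19 had adjusted p = 0.000735 and adjusted p = 0.00119 (limma). Its close relative Ptpn1, or PTP1B, which acts on the insulin and leptin receptors, read 0.20, 0.10 and 0.18 and did not pass. Ptpn13 averaged -0.57 ± 0.10 on 1 probe and -0.01 ± 0.19 on the other. Ptpn11, or SHP-2, which couples growth factor receptors to the MAP kinase cascade, averaged -0.55 ± 0.05 on 1 of 3 probes, and the other two did not pass. Ptpn12, Ptpn14 and Ptpn4 each had a probe past the test toward spleen, with means between -0.50 and -0.38. Of these calls, that of Ptpn4 was lost without any 1 array, that of Ptpn14 without array 1 or 2, and 1 of the 2 of Ptpn12 without array 1 or 3. Ptpn5, Ptpn9 and Ptpn20 did not pass on any probe.

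MAP kinase phosphatases were near 0 apart from Dusp2. Of 7 tested probes of 4 genes, none passed toward liver and 3 toward spleen, against 23.5% and 26.7% of all probes. Dusp2, known as PAC-1, an inducible nuclear phosphatase of activated lymphocytes and other blood cells, read -2.12, -1.78 and -2.48 on probe 1391. The mean was -2.13 ± 0.35 (4.37-fold, adjusted p = 0.000178, limma). Its probe 6861, tied to the same sequence record, read -0.24, -0.45 and -0.27 and passed with all arrays but not without any 1 of them. Its probe 3404 read 0.42, -1.03 and 0.22 and did not pass. Dusp8 passed on 1 probe at -0.24 ± 0.04, a call also lost without any 1 array. Dusp6, which acts on ERK, averaged -0.04 ± 0.13, and Dusp16 read -0.14, 0.50 and -0.39. Of 18 tested MAP kinase probes, 1 passed toward spleen, for Mapk6 at -0.57 ± 0.17, and none toward liver, with a median of 0.01. Among all probes, 26.7% passed toward spleen and 23.5% toward liver.

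Of 9 tested probes for other dual-specificity phosphatases, 2 passed toward liver and 1 toward spleen, against 23.5% and 26.7% of all probes. Dusp22, a small phosphatase that feeds into JNK signalling, read 0.72, 0.56 and 0.33, a mean of 0.53 ± 0.20 (adjusted p = 0.00902, limma). Dusp19 averaged 0.25 ± 0.08 and its call was lost without any 1 array. Dusp14 read -0.41, -0.34 and -0.42 on 1 probe (adjusted p = 0.0103, limma; not past without array 1) and averaged 0.08 ± 0.01 on the other. Dusp3, or VHR, read 0.82, 0.39 and -0.01 and did not pass, but did so toward liver without array 3 at 0.60. Dusp12, Dusp13 and Dusp23 did not pass, though a Dusp13 probe did toward liver without array 3 at 0.38, and Dusp21 had values on arrays 2 and 3 only, -0.37 and -0.74.

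The catalytic subunits of PP1 were lower in liver as a set. All 6 probes of Ppp1ca, Ppp1cb and Ppp1cc passed toward spleen, with a median of -0.51, against 26.7% of all probes. Ppp1cc, whose product also serves in mitosis, read -1.17, -0.79 and -1.42 on probe 18423 and -0.89, -0.83 and -0.91 on probe 8355. The means were -1.12 ± 0.32 and -0.88 ± 0.04, with adjusted p = 0.00145 and adjusted p = 0.00046 (limma). Ppp1ca read -0.53, -0.47 and -0.48 on probe 12162 and -0.62, -0.31 and -0.55 on probe 2055, each with a mean of -0.49. Ppp1cb read -0.59, -0.27 and -0.73 on probe 2884 and -0.53, -0.26 and -0.53 on probe 14231. Its means were -0.53 ± 0.24 and -0.44 ± 0.16, and array 2 was nearest to 0 on each of them. Without array 1 neither Ppp1cb probe passed, which left 4 of 6, and without array 3 there were 5. These genes are close in sequence, and signal shared between their probes was not resolved here.

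Of 17 tested probes for other PP1 regulators, none passed toward liver and 5 toward spleen, against 23.5% and 26.7% of all probes. Ppp1r21 read -0.84, -1.24 and -0.70 (mean -0.93 ± 0.28, adjusted p = 0.00221, limma). Ppp1r12a, the myosin-targeting subunit of smooth muscle and other cells, read -0.996, -0.96 and -0.43, with array 3 nearest to 0 (mean -0.80 ± 0.32, adjusted p = 0.0055, limma). Ppp1r15a, or GADD34, which brings PP1 to the translation factor eIF2 alpha under stress, read -0.78, -0.93 and -0.66. Ppp1r7, a nuclear regulator, read -0.79, -0.88 and -0.69. Ppp1r2, or inhibitor 2, averaged -0.39 ± 0.13 and did not pass without array 2. The regulators Ppp1r10, Ppp1r11, Ppp1r12b, Ppp1r14b, Ppp1r14bl, Ppp1r17, Ppp1r27, Ppp1r35, Ppp1r42 and Ppp1r9a did not pass on any probe, with means from -0.36 to 0.23. Ppp1r27 read 0.55 and 0.45 on arrays 1 and 3 but -0.47 on array 2, and passed toward liver without array 2 at 0.50. Ppp1r14bl is a near copy of Ppp1r14b, and their signals may be shared.

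Calcineurin, the calcium-activated phosphatase that sends NFAT factors to the nucleus, was lower in liver on every probe measured on 3 arrays. All 8 probes of Ppp3ca, Ppp3cb, Ppp3cc and Ppp3r1 passed toward spleen, against 26.7% of all probes, with a median of -0.44. Ppp3cc, a catalytic subunit, read -1.37, -1.40 and -1.38 on probe 2802, a mean of -1.38 ± 0.01 (2.61-fold, adjusted p = 9.28e-05, limma). Its probe 15645 read -0.62, -0.24 and -0.37. Ppp3cb ranged over its 3 probes from -0.80 ± 0.21 (adjusted p = 0.00207, limma) to -0.28 ± 0.05, and the 2 Ppp3ca probes averaged -0.46 ± 0.12 and -0.36 ± 0.19. Ppp3r1, the calcium-binding regulatory subunit, read -0.83, -0.56 and -0.17, the most uneven values of the 8. The count rests on all arrays together: 3 of 8 passed without array 1, 5 without array 2 and 6 without array 3. Ppp3r2, a testis-type copy of Ppp3r1, had values of -0.20 and -0.49 on arrays 1 and 2 only. Of 12 tested probes for calcineurin targets and partners, 2 passed toward liver and 2 toward spleen, against 23.5% and 26.7% of all probes. Toward spleen these were Nfatc3 at -0.66 ± 0.41 and Nfatc1 at -0.38 ± 0.16.

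PP2A, which joins a catalytic subunit and a scaffold to 1 of many regulatory subunits, was mixed. Its 8 genes had 12 tested probes, with 2 past the test toward liver and 3 toward spleen, against 23.5% and 26.7% of all probes. Leaving out any 1 array left 1 and 1. The regulatory subunit Ppp2r2d read 0.41, 0.50 and 0.54, a mean of 0.49 ± 0.07 (adjusted p = 0.00488, limma), and Ppp2r5d averaged 0.28 ± 0.12. The catalytic subunit Ppp2ca read -0.35, -0.56 and -0.43 on probe 3363 (mean -0.45 ± 0.11, adjusted p = 0.00841, limma), while its probe 631 averaged -0.20 ± 0.22 and did not pass. The catalytic subunit Ppp2cb passed at -0.28 ± 0.04 on 1 probe of 2. The scaffold Ppp2r1a averaged -0.25 ± 0.03 on probe 14112, past the test, and 0.26 ± 0.15 on probe 12101, not past it. Ppp2r2b, Ppp2r3c and Ppp2r3d did not pass on any tested probe, and a further Ppp2r2b probe was listed at 0 on every array.

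None of the 8 tested probes of PP4, PP5 and PP6 (Ppp4c, Ppp4r1, Ppp5c, Ppp6c, Ppp6r2 and Ppp6r3) passed in limma's test, with means between -0.11 and 0.24. Among all probes, 50.2% passed in either direction. The catalytic subunit Ppp6c read 0.22, 0.32 and 0.17, with adjusted p = 0.0597 (limma). It passed toward liver with exact zeros kept and when averaged by gene (adjusted p = 0.0441 and adjusted p = 0.0492, limma). A probe of Ppp4c read 0.35, 0.35 and -0.00 and passed toward liver without array 3. The difference between these phosphatases and PP1 or calcineurin was not tested.

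**Figure D3:**
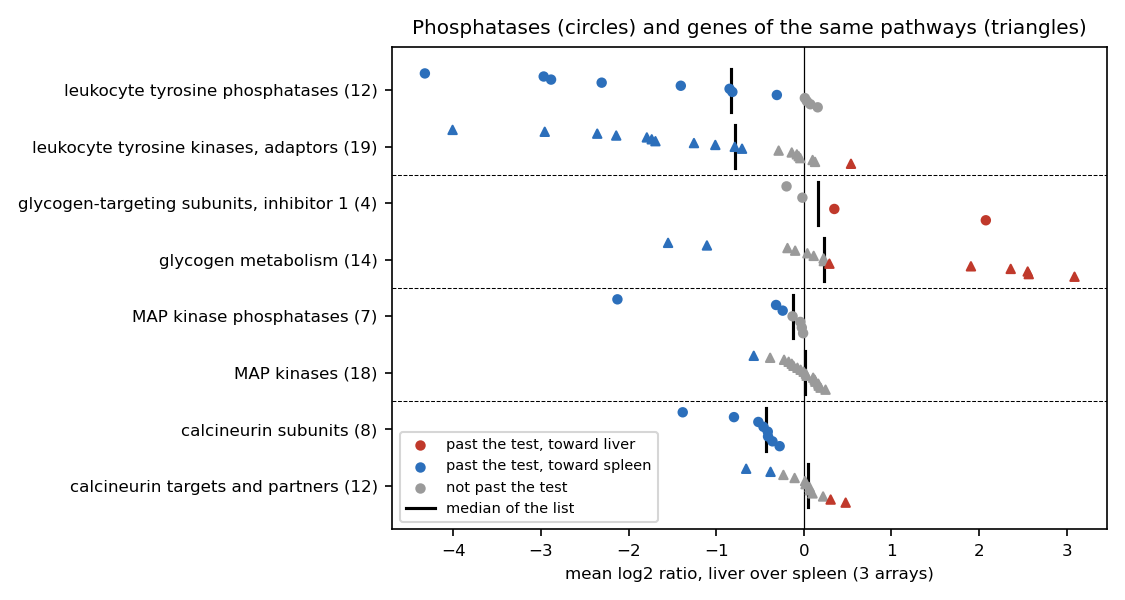
Mean log2 ratio, liver over spleen, of the tested probes of 4 phosphatase groups (circles) and of genes of the same pathways (triangles), with list medians as black bars and colours as for calls in the plot by role. Leukocyte phosphatases and leukocyte kinases have medians of -0.83 and -0.79, while MAP kinases and calcineurin partners centre at 0.01 and 0.04.

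Probes of the same gene could differ widely. Of the 82 genes tested, 41 had more than 1 tested probe, which gave 51 probe pairs. Of these, 36 pairs had means within 0.5 of each other. In 18 pairs 1 probe passed the test and the other did not, and in none did both pass in opposite directions. All 18 were among the 39 pairs from different records. Among all 51 pairs, 6 pairs of 4 genes, Ptprc, Ptprd, Ptprcap and Dusp2, differed by more than 1. Of the 6, 5 were pairs from different records, as were 39 of the 51. The median gap was 0.26 over the pairs from different records and 0.12 over the 12 pairs from the same record, a difference that was not tested. For Ptprc the gap was 4.36 and for Ptprd 2.75 at most. Averaged over their probes, the genes came to -2.15 ± 0.21 for Ptprc and 1.87 ± 0.13 for Ptprd. In each of the 4 genes the probes nearer 0 did not differ from 0 by more than 0.32 in the mean.

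**Figure D4:**
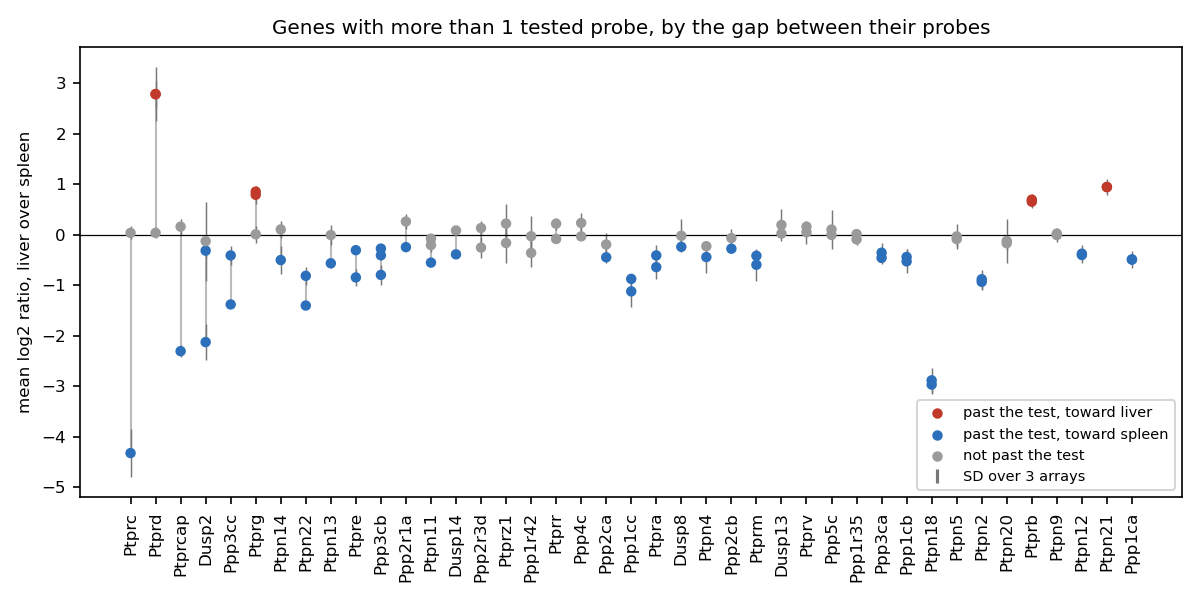
Mean log2 ratio, liver over spleen, with SD over 3 arrays, of each tested probe of the 41 genes with more than 1, ordered by the gap between a gene's probes; red points passed the test toward liver, blue points toward spleen and grey points in neither direction. Ptprc, Ptprd, Ptprcap and Dusp2 at the left each have a wide probe and a probe near 0, while the means of the 2 probes lie 0.08 apart for Ptpn18 and less than 0.01 apart for Ptpn21.

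The 16 phosphatase probes without a value on all arrays were not tested. Of them 14 had 1 or 2 values, and 2, of Ptpn5 and Ppp2r2b, had none. The 6 genes Dusp21, Ppp1r12c, Ppp3r2, Ptprf, Ptprn and Ptprn2 were represented by such probes alone. Beyond those given above, Ppp6r2 read 0.45 and 0.58 on arrays 1 and 2, and a Ptpn12 probe read -0.40 and -0.65 on arrays 2 and 3. The remaining values lay between -0.51 and 0.62. No phosphatase value reached the table's upper limit of 6.64, the log2 of 100.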

How the data were processed

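The deposited table gives 1 log2 ratio of the channels per probe and array, and was used as the authors deposited it. For the log base, direction, background correction and dye normalization, what was done is not given in the sources used here. The base was read from the highest value, 6.64 on all 3 arrays. Exact zeros, 1414, 1098 and 1137 probes on arrays 1, 2 and 3, were taken as no measurement. Per the labels, cRNA was made with 1 round of amplification. Depth has no meaning for arrays, and their number limits the precision. Gene names are those of the platform annotation, and the Entrez numbers of all 144 phosphatase probes were found in a RefSeq gene table with no symbol changed. The annotation's sequence records were used to say which probes share a source. Each probe measured on 3 arrays was fitted against 0 with limma 3.58.1 in R 4.3.3 (two-sided, 3.38 prior and 2 residual degrees of freedom), and the test was checked on simulated data. Probes were not averaged by gene. Promoter sequences come from RefSeq (GRCm38.p6), which held 93 windows for 71 of the 88 genes. The members, role lists, pathway lists and naming rule were chosen with earlier results of these data known. That rule let any phosphatase be named, with all values for the leukocyte, hepatic and PP1 catalytic lists and the largest members of the others; the lower Dusp, PP1 regulator and calcineurin members, the flat probes of Blnk and the promoter genes were chosen after their values were seen. Alternatives left out each array, centred or scaled the arrays, kept exact zeros, allowed 2 values, averaged by gene, moderated variances robustly or added a 2-fold limit.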

Additional observations from a re-analysis of the deposited data

How the results depend on the processing

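Leaving out 1 array gave 12 to 16 phosphatase probes past the test toward liver and 29 to 37 toward spleen, against 16 and 46 with all arrays. The 2-fold limit left 4 and 8. Averaging by gene gave 13 and 26 genes of 82, and a median of -1.07 for the leukocyte tyrosine phosphatases over genes, against -0.83 over probes. Apart from the 2-fold limit, no share of all probes or genes was taken for the alternatives. Whether phosphatase calls were lost more often than others was not tested. Of the 62 probes past the test, 38 passed in every fit that left out 1 array. The same number passed in all alternatives fitted by probe other than the 2-fold limit. The 24 calls lost were of absolute mean ratios from 0.24 to 0.60. No probe past the test changed sign in any alternative fitted by probe. Averaged by gene, Ppp2r1a, past the test toward spleen on probe 14112, came to 0.006 and did not pass. The median of the hepatic metabolic subunits moved by less than its spread between arrays, from 0.11 to 0.20. Counts by direction under centring and scaling were 13 and 46 to 47. No paired analysis was possible because the arrays form 1 group. Signal over background is not in the table, so a ratio near 0 may be a dim probe, which was not tested.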
